A study of Mus musculus with 18 samples.

Results

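The livers of C57BL/6 mice taken 72 h after 2/3 partial hepatectomy were compared with livers of the same strain taken 48 h after the same operation. Each time had 2 libraries, and each library was a pool of liver RNA from 3 mice, so that 4 of the 18 libraries of the series, or 12 of its 54 mice, entered the comparison. The other groups of the series were livers at 0.5, 2, 4, 24, 120 and 168 h after the operation and livers after a sham operation. They are used here for the course, and those at 2, 4, 24, 120 and 168 h also for the estimate of the spread. Sham and 0.5 h had 1 complete library each and add nothing to that estimate. Both groups compared had been operated on, so neither is an untreated control. The sex and age of the mice are not in the labels, and n = 2 pools per time throughout. A pool averages 3 animals, so the spread between mice is not seen, and no label says that pools 1 and 2 came from separate operations.

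Partial hepatectomy removes most of the lobes of the liver, and the cells that remain leave their resting state, copy their DNA and divide until the mass is restored. Hepatocytes enter the cycle first, and stellate, endothelial and biliary cells follow. Entry into S phase depends on E2F factors, whereas the genes of mitosis are switched on later through B-MYB and FOXM1 and are turned over as division ends. A growing liver also needs membrane, and sterols and fatty acids are made there by enzymes whose genes are targets of the SREBP transcription factors.

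Sequencing depth was similar in the 4 libraries, with totals of uniquely mapped reads between 8.54 and 9.06 in units of 1000000, and 14385 to 14741 genes were listed in each. The libraries were liver: reads of Alb, which encodes albumin, made up 13.5% and 12.5% of the 72 h libraries and 10.05% and 10.03% of the 48 h libraries. Replicate 2 at 48 h stood apart in inflammation genes, with 28 of 29 acute-phase genes higher in it than in replicate 1 and a summed level of 79333 against 45102 CPM (counts per 1000000 reads, here after TMM scaling). The pools at 72 h differed in another way. All 67 mitosis genes measured were higher in replicate 2 than in replicate 1, and all 24 cholesterol synthesis genes were higher in replicate 1. Over all 12199 genes tested, the pool-to-pool differences had an SD of 0.465 (log2) at 72 h and 0.458 at 48 h, close to the lowest among the groups with 2 complete libraries, which ran from 0.457 to 0.591.

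At an adjusted p under 0.05, 80 of the 12199 genes differed, 52 higher and 28 lower at 72 h. This is 0.656% of the genes tested, 0.426% higher and 0.23% lower. Of these, 37 of the rises and 11 of the falls were at least 2-fold. In all 80 genes both 72 h pools lay on the same side of both 48 h pools, which over all genes tested was so for 24.7% above and 26.0% below. Log2 fold changes among the 80 genes ran from 0.68 to 2.91 for rises and from -0.61 to -5.58 for falls. The median over all genes tested was 0.01. An unadjusted p under 0.05 was reached by 1802 of the 12199 genes tested. Counts of list members at that threshold are to be read against this share. Fits that leave out a pool have shares of their own. The spread behind each p-value was estimated over the groups of the series with 2 complete libraries, with 7 residual degrees of freedom. With the 4 libraries alone 13 genes passed, 12 of them among the 80.

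The number of calls depended on single pools. Without 48 h replicate 2 no gene passed in edgeR, although 1039 had an unadjusted p under 0.05. Without 72 h replicate 1, 10 genes passed, and without 48 h replicate 1, 32 passed. The fit that left out 72 h replicate 2 called 83 genes, 49 of them among the 80. All 80 genes kept their direction in each of these fits, in which the spread of a lone pool was taken from the rest of the series. The pools of these genes did not overlap, so leaving out 1 pool could hardly reverse a direction. The kept directions are therefore no separate support. Bulk RNA cannot tell fewer cells of a type from less RNA of a gene in each cell, which holds for every result below.

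**Figure D1:**
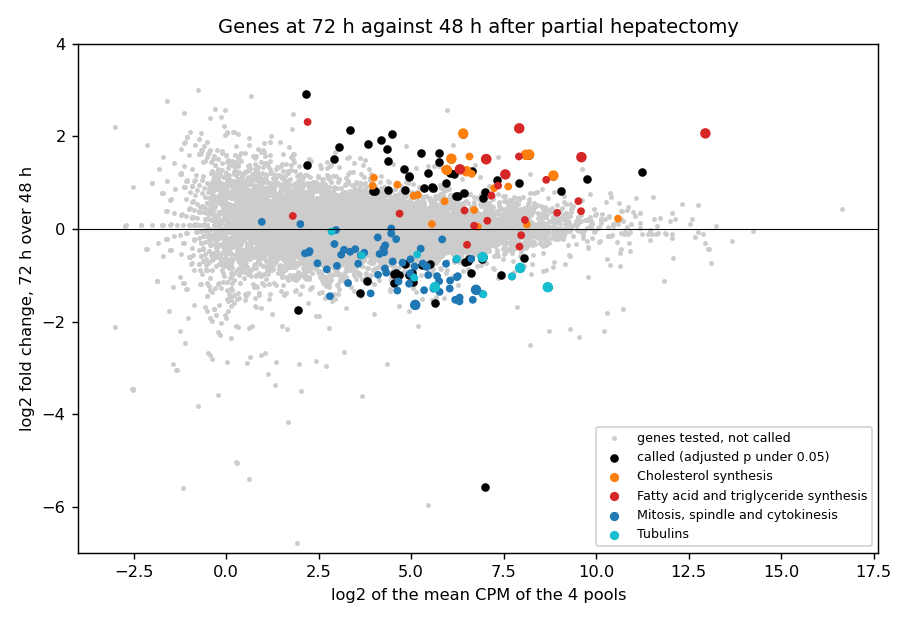
Each point is 1 of the 12199 genes tested, with the log2 of its mean CPM over the 4 pools on the horizontal axis and its log2 fold change, 72 h over 48 h, on the vertical axis; black and large coloured points are the 80 genes called. The cholesterol synthesis genes all lie above 0, whereas the 11 genes of the tubulin list all lie below it.

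Cholesterol synthesis genes had higher values at 72 h. Of 24 measured, 8 rose, none fell and 16 did not pass the test, and the median log2 fold change was 1.03, against 0.01 for all genes tested. All 24 had a positive value, and in 20 both 72 h pools lay above both 48 h pools, against 24.7% of all genes tested. The 8 that rose act at early, middle and late steps of the pathway: Hmgcs1, Pmvk, Idi1, Fdps, Lss, Cyp51, Nsdhl and Sc5d. The promoters of 4 of them, from the RefSeq table on GRCm38.p6 (mm10), are printed because the same short word recurs near their starts. Capitals mark the word CCAAT, read on either strand (ATTGG on the other), and in Hmgcs1 also the word TCACCCCAC, a match to the sterol regulatory element TCACNCCAC. Each line gives the 150 bases before the start site of the promoter table. For Lss that site lies downstream of the gene start given below, so the end of the stretch is inside the gene as annotated there.
Hmgcs1 promoter, forward strand of chr13:119690201-119690350: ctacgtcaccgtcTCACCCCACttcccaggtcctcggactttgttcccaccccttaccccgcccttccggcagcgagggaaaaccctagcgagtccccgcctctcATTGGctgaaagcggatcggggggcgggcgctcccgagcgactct
Idi1 promoter, forward strand of chr13:8885456-8885605: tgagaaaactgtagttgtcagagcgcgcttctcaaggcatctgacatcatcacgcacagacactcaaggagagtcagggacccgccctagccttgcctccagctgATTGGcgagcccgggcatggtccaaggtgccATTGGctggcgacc
Cyp51 promoter, reverse strand of chr5:4104698-4104847: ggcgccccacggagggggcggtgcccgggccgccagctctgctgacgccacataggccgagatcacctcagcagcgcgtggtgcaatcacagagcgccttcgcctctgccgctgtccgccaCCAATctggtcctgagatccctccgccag
Lss promoter, forward strand of chr10:76531455-76531604: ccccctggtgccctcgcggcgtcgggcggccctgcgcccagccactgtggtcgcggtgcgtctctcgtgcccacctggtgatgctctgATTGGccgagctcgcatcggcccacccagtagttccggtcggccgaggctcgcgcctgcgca

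In the 250 bases before the start, CCAAT on either strand was found in 16 of the 16 cholesterol synthesis genes with an entry in the table, and in 40.9% of the 9756 tested genes with one. The word was also found in 57.1% of the genes called higher and 56.5% of those called lower. It was in 63.2% of the fatty acid and triglyceride synthesis genes and 66.7% of the G1/S genes. In Hmgcs1 the match nearest the start lay at -45 to -41, with 2 others upstream of the printed stretch, in Idi1 at -45 to -41 and at -14 to -10, in Cyp51 at -29 to -25 and in Lss at -62 to -58. The exact sterol word was found in Hmgcs1 alone of the 16, at -137 to -129, and in 1.3% of the 9756 promoters. These are matches of letters, and binding was not measured.

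Hmgcs1 (chromosome 13, 119690351 to 119708260), which encodes the synthase that makes HMG-CoA, had 535 and 289 CPM in the 72 h pools, against 138 and 133 CPM in the 48 h pools. Both 72 h pools were above both 48 h pools, and they differed from each other more than the 48 h pools did. Its log2 fold change was 1.60 ± 0.31 (SE, adjusted p = 0.0406). Pmvk, a kinase of the mevalonate branch, measured 91.7 and 84.9 CPM at 72 h, against 40.7 and 32.3 CPM at 48 h (log2 fold change 1.28 ± 0.22, adjusted p = 0.0209).

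Idi1 (chromosome 13, 8885606 to 8892396), whose product isomerises isopentenyl diphosphate, a building block of isoprenoids, showed the largest rise of the group. It had 189 and 84.3 CPM at 72 h, against 32.9 and 32.5 CPM at 48 h, a log2 fold change of 2.06 ± 0.38 (adjusted p = 0.0295). Without 72 h replicate 1 the value was 1.37. Fdps, which joins those blocks to farnesyl diphosphate, was at 532 and 348 CPM at 72 h, against 160 and 128 CPM at 48 h (1.61 ± 0.23 on the log2 scale, adjusted p = 0.0132).

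The first cyclic sterol is made by lanosterol synthase, and its gene Lss (chromosome 10, 76531565 to 76557139) was even within each time. It measured 106 and 95.1 CPM in the 72 h pools, against 36.8 and 33.4 CPM in the 48 h pools, with no overlap (log2 fold change 1.52 ± 0.20, adjusted p = 0.0132). Cyp51 (chromosome 5, 4080674 to 4104697), the lanosterol demethylase, stood at 263 and 124 CPM at 72 h, against 66.8 and 68.9 CPM at 48 h (1.51 ± 0.28, adjusted p = 0.0293). Exons of Cyp51 overlap those of Akap9 in the annotation and no source used here states whether counting used the strand. Nsdhl and Sc5d, which act in the last steps to cholesterol, had log2 fold changes of 1.25 ± 0.26 and 1.16 ± 0.18.

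Of the 16 members that did not pass, Sc4mol (methylsterol oxidase) had 204 and 81.0 CPM at 72 h, against 51.1 and 45.1 CPM at 48 h, and Sqle (squalene epoxidase) had 117 and 54.1 CPM, against 30.3 and 39.6 CPM. Their log2 fold changes were 1.57 ± 0.36 (adjusted p = 0.0787) and 1.28 ± 0.31 (adjusted p = 0.0837). The pools of both times overlapped in 4 members, among them Ebp and the transcription factor gene Srebf2 (54.3 and 43.2 CPM, against 43.5 and 47.0 CPM).

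The summed level of the 24 genes was 6336 and 4496 CPM at 72 h, against 3353 and 3142 CPM at 48 h. It was 3323 CPM in the complete sham library and 2572 and 2620 CPM at 24 h, and it was 4568 and 4266 CPM at 120 h and 4793 and 5048 CPM at 168 h. The sum was 3683 CPM in the complete 0.5 h library, 3419 and 3443 CPM at 2 h and 4496 and 3036 CPM at 4 h. The 72 h mean was the highest of the course, but 72 h replicate 2 lay within the range of the 2 later times and level with 4 h replicate 1. The number that passed depended on the pools: it was 12 without 72 h replicate 2, 3 without 48 h replicate 1 and 0 without either of the others, where 13 (without 72 h replicate 1) and 15 (without 48 h replicate 2) had an unadjusted p under 0.05. The median lay between 0.71 and 1.21 in the 4 fits.

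Genes of fatty acid and triglyceride synthesis showed 6 rises and no fall among 24 measured, with 18 not passing and a median log2 fold change of 0.50. The rises were in Acss2, Acly, Acacb, Elovl6, Scd1 and Me1, which cover the supply of acetyl-CoA and NADPH, carboxylation, chain elongation and desaturation. Scd1 (chromosome 19, 44394450 to 44407709) encodes stearoyl-CoA desaturase, which puts the double bond into oleate. It had 11625 and 13965 CPM in the 72 h pools, against 3744 and 2362 CPM in the 48 h pools. No pool overlapped, and Scd1 had the most reads of the 80 genes. Its log2 fold change was 2.07 ± 0.35 (adjusted p = 0.0209). Scd2, a close relative that was not on the list, measured 50.3 and 64.8 CPM at 72 h, against 20.2 and 16.9 CPM at 48 h (1.63 ± 0.23, adjusted p = 0.0132); reads could be split between such relatives.

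The acetyl-CoA supply genes moved the same way. Acss2 (chromosome 2, 155518043 to 155562743), which activates acetate in the cytosol, had 430 and 363 CPM at 72 h, against 102 and 73.6 CPM at 48 h, a log2 fold change of 2.18 ± 0.32 (adjusted p = 0.0147). Acly, which splits citrate, had 872 and 1444 CPM at 72 h, against 526 and 263 CPM at 48 h (1.55 ± 0.31, adjusted p = 0.044). For Acacb, the acetyl-CoA carboxylase at mitochondria, 195 and 190 CPM at 72 h stood against 84.4 and 51.0 CPM at 48 h (1.51 ± 0.30). Acaca, the other acetyl-CoA carboxylase gene on the list, did not pass. It had 218 and 210 CPM at 72 h, against 134 and 89.6 CPM at 48 h (0.94 ± 0.23, adjusted p = 0.0905). The pools of Acly differed within both times, and its value was 1.12 without 72 h replicate 2.

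Elovl6, which lengthens palmitate, was at 103 and 123 CPM at 72 h, against 52.7 and 39.7 CPM at 48 h (1.29 ± 0.26, adjusted p = 0.0434). Me1, the cytosolic malic enzyme that supplies NADPH, was at 264 and 254 CPM, against 121 and 107 CPM (1.18 ± 0.19, adjusted p = 0.0154). Me1 is also the only called member among 16 measured NRF2 targets.

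Fasn, which encodes fatty acid synthase, did not pass. It had 765 and 1003 CPM at 72 h, against 918 and 246 CPM at 48 h, so that the times overlapped and 48 h replicate 2 was the low pool (log2 fold change 0.60 ± 0.47, adjusted p = 0.577). Without that pool the value was -0.057, and without 48 h replicate 1 it was 1.84. Whether Fasn differed from the called members was not tested. Thrsp (Spot 14, a lipogenic regulator) had 416 and 305 CPM at 72 h, against 178 and 65.5 CPM at 48 h, with an adjusted p of 0.0815. The transcription factor gene Srebf1 had 204 and 219 CPM at 72 h, against 344 and 207 CPM at 48 h (-0.38 ± 0.23), and the diacylglycerol acyltransferase genes Dgat1 and Dgat2 had values of -0.43 ± 0.20 and 0.20 ± 0.15. All 4 negative values of the list, Dgat1, Srebf1, Lpin1 and Agpat2, were small and none passed.

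The 24 genes summed to 18196 and 21289 CPM at 72 h, against 8804 and 5777 CPM at 48 h, of which Scd1 was the larger part at 72 h. The sum was 10323 CPM in sham, 16815 CPM at 0.5 h, 9786 and 16634 CPM at 2 h and 17493 and 13914 CPM at 4 h. It was 4076 and 4755 CPM at 24 h, 11628 and 12296 CPM at 120 h and 17928 and 15304 CPM at 168 h. The time course therefore had its low point at 24 h. The median of 0.50 became 0.24 without 48 h replicate 2 and 0.87 without 48 h replicate 1. Without 48 h replicate 2 no member passed in edgeR and 11 had an unadjusted p under 0.05. The median was 0.67 without 72 h replicate 1 and 0.51 without 72 h replicate 2.

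**Figure D2:**
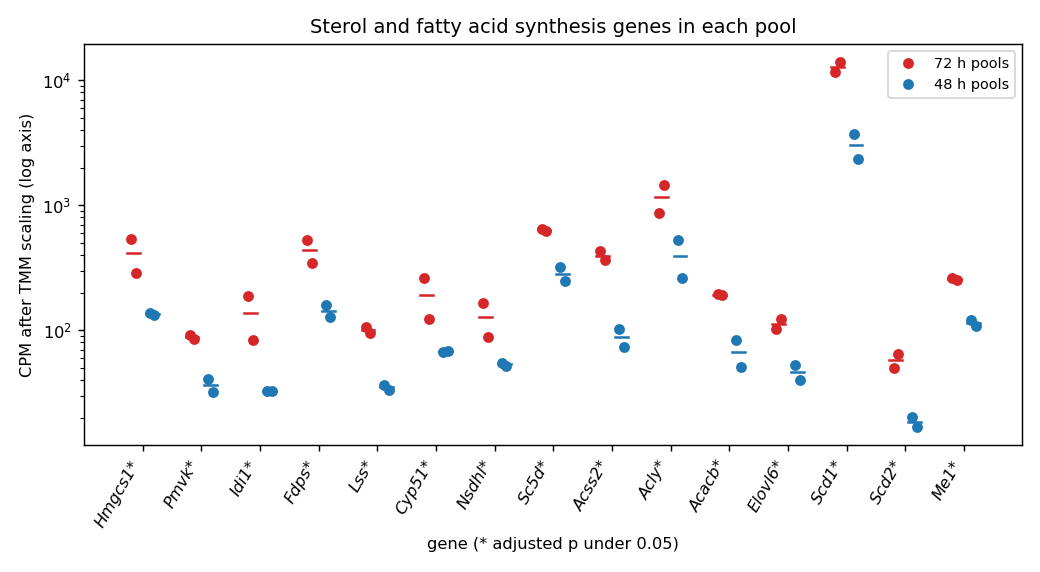
CPM after TMM scaling, on a log axis, of 15 sterol and fatty acid synthesis genes; points are single pools of 3 mice (red 72 h, blue 48 h), bars are the means of 2 pools, and every gene shown passed the test. The 2 red points lie above the 2 blue points for each gene, as for Idi1 with 189 and 84.3 CPM at 72 h and 32.9 and 32.5 CPM at 48 h.

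Other rises were spread over several functions. Camk1d, a calcium-dependent protein kinase gene on chromosome 2 (5293457 to 5714860), had the smallest p-value of all. It measured 95.8 and 104 CPM in the 72 h pools, against 44.1 and 43.6 CPM in the 48 h pools, with a log2 fold change of 1.19 ± 0.13 (adjusted p = 0.0039). Smoc2, which encodes a secreted calcium-binding matrix protein, had 19.5 and 13.5 CPM at 72 h, against 3.84 and 3.64 CPM at 48 h (2.14 ± 0.34, adjusted p = 0.0154). Mest, an imprinted gene of growing tissue, had 18.5 and 25.3 CPM, against 5.18 and 7.08 CPM (1.84 ± 0.30). Aqp8, a water channel of the hepatocyte, had 98.1 and 64.2 CPM, against 34.5 and 17.6 CPM (1.64 ± 0.33). The pools of 72 h and 48 h were apart in each of these genes.

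Ugt1a5 and H2-Q1 also rose, with log2 fold changes of 2.05 ± 0.32 and 1.93 ± 0.36. Ugt1a5 belongs to a cluster of glucuronosyltransferase genes that share their last exons, and H2-Q1 to the family of class I histocompatibility genes, so the assignment of reads to these single members is uncertain. Mest overlaps Copg2 in the annotation, and exons of Acss2, Pklr, Rtn4, Tubb4b, Tuba4a and Plk3 also overlap those of another gene in the deposited tables.

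Enzymes of amino acid, purine and methyl-group metabolism were among the genes that rose with many reads. Bhmt (chromosome 13, 93616891 to 93637758), which remethylates homocysteine with betaine, had 4050 and 2784 CPM at 72 h, against 1443 and 1462 CPM at 48 h, a log2 fold change of 1.23 ± 0.22 (adjusted p = 0.027). Uox, the urate oxidase that humans lack, had 1313 and 1030 CPM, against 608 and 494 CPM (1.09 ± 0.21). In Bhmt the 48 h level was the low point of the course: sham had 3193 CPM, the 24 h pools 3975 and 2800 CPM, and the 168 h pools 2965 and 3737 CPM. Qdpr, which regenerates the cofactor of the aromatic amino acid hydroxylases, rose by 1.05 ± 0.15 on the log2 scale, Gamt, the last enzyme of creatine synthesis, by 0.79 ± 0.16, and Prodh2, which breaks down hydroxyproline, by 0.79 ± 0.13.

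Among 32 genes of the urea cycle and amino acid breakdown, 2 rose in edgeR (Bhmt and Kynu, which acts on kynurenine) and none fell, with a median of 0.36. DESeq2 called 6 higher and 1 lower, and limma-trend 2 higher. In 21 of the 32 both 72 h pools lay above both 48 h pools, and in 4 both lay below. Over all genes tested the shares were 24.7% and 26.0%. Cth, Gnmt and Prodh had values of 0.80 ± 0.20, 0.76 ± 0.19 and 0.70 ± 0.17 with adjusted p between 0.0882 and 0.0976. Ass1 of the urea cycle had 2757 and 2572 CPM at 72 h, against 1761 and 1599 CPM at 48 h (adjusted p = 0.106).

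In glucose use, 2 of 24 genes rose and none fell in edgeR, at a list median of -0.04. DESeq2 called 3 higher and 1 lower, and limma-trend on log2(RPKM + 1) 2 higher and 1 lower. Pklr, the liver pyruvate kinase, had 176 and 107 CPM at 72 h, against 65.1 and 53.8 CPM at 48 h (1.25 ± 0.23, adjusted p = 0.0321). Aldoc, an aldolase, had 16.9 and 8.24 CPM, against 3.36 and 3.93 CPM (1.78 ± 0.32). Ldha, lactate dehydrogenase, went the other way without passing, at 988 and 955 CPM, against 1414 and 1913 CPM (-0.78 ± 0.17, adjusted p = 0.057). Pdk1, which inhibits pyruvate dehydrogenase, was outside the list and rose by 1.30 ± 0.21 on the log2 scale.

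Of 31 stellate cell and matrix markers measured, 1 rose and none fell in edgeR, and 28 had a positive value, with a median of 0.67. Both 72 h pools lay above both 48 h pools in 23, against 24.7% of all genes tested. The 1 that rose was Col14a1, a fibril-associated collagen, with 46.6 and 58.8 CPM at 72 h, against 28.6 and 28.1 CPM at 48 h (0.89 ± 0.17, adjusted p = 0.0323). Ccdc80, another matrix-linked gene outside the list, had 34.9 and 50.02 CPM, against 19.3 and 18.9 CPM (1.15 ± 0.19). The fibrillar collagens were uneven at 72 h. Col1a1 had 38.4 and 116 CPM at 72 h, against 34.7 and 25.8 CPM at 48 h (adjusted p = 0.136), and Col3a1 had 99.4 and 209 CPM, against 65.3 and 52.9 CPM (adjusted p = 0.0607). Replicate 2 at 72 h was the higher pool in 30 of the 31 genes, and the summed levels were 1138 and 1668 CPM at 72 h, against 955 and 922 CPM at 48 h. When 72 h replicate 2 was left out, the median was 0.32, none passed in edgeR, and 7 had an unadjusted p under 0.05, against 18 with all pools. Without 72 h replicate 1 the median was 0.82. DESeq2 called 5 of the 31 higher, and limma-trend called 1 on log2 CPM and 0 on log2(RPKM + 1). Lrat, which stores retinol in stellate cells, had a log2 fold change of 1.56 ± 0.43 (adjusted p = 0.116). The part of a changed share of stellate cells was not tested.

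Several tubulin genes were lower at 72 h. Of the 11 genes in the tubulin list, 4 fell and none rose, and the median log2 fold change was -0.84. Both 72 h pools lay below both 48 h pools in 10, against 26.0% of all genes tested. Tubb4b (chromosome 2, 25222158 to 25224702), a beta-tubulin of spindles and cilia, had the most reads of the genes that fell. It had 206 and 282 CPM in the 72 h pools, against 554 and 612 CPM in the 48 h pools, a log2 fold change of -1.26 ± 0.18 (adjusted p = 0.0132). Tuba1c had 27.0 and 31.8 CPM at 72 h, against 68.0 and 72.4 CPM at 48 h (-1.25 ± 0.18, adjusted p = 0.0132). Tubb5 had 154 and 200 CPM, against 327 and 306 CPM (-0.84 ± 0.15), and Tuba4a had 96.9 and 96.1 CPM, against 149 and 145 CPM (-0.61 ± 0.12). In all 4 the gap between the times was larger than the gap within either time. The fall of Tuba4a was the smallest change of the 80 genes called. Tubulin genes have near-identical coding sequences, so reads may be shared among them. Tubb6 and Stmn1, which binds free tubulin, had values of -1.41 ± 0.40 and -1.03 ± 0.30 that did not pass, and Tuba1a had 5.45 and 8.44 CPM, against 7.01 and 7.48 CPM, with overlap. The number of tubulin genes that passed was 0 without 72 h replicate 1 and 0 without 48 h replicate 2, where 8 and 9 had an unadjusted p under 0.05, and it was 2 without 48 h replicate 1.

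Most genes of mitosis, spindle and cytokinesis had lower values at 72 h, but few passed. Of 67 measured, 2 fell, none rose and 65 did not pass, with a median of -0.81. A negative value was found in 64, and both 72 h pools lay below both 48 h pools in 50, against 26.0% of all genes tested. The exceptions with a value above 0 were Smc2, Kif15 and Cit. Promoters are printed for Iqgap3, which fell, for Tubb4b of the tubulin list, and for Cdc20, which did not pass and was chosen after its sequence was seen because it holds both words. Capitals mark CCAAT and the cell cycle homology word TTTGAA, both read on either strand (TTCAAA on the other). For Iqgap3 the start site of the promoter table lies downstream of the gene start given below, so the end of the stretch, with the capitals, is inside the gene as annotated there.
Iqgap3 promoter, forward strand of chr3:88081901-88082050: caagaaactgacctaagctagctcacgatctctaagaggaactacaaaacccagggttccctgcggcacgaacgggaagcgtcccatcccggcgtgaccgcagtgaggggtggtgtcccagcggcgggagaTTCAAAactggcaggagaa
Cdc20 promoter, reverse strand of chr4:118437344-118437493: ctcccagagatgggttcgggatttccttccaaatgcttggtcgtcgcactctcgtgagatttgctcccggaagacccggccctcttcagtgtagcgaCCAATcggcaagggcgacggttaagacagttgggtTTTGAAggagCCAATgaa
Tubb4b promoter, reverse strand of chr2:25224703-25224852: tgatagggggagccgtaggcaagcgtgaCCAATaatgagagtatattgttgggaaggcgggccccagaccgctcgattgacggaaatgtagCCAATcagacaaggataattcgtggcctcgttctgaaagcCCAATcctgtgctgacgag

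The cell cycle homology word was found in the 250 bases before the start in 22 of 57 mitosis genes with an entry (38.6%), and in 13.1% of the 9756 promoters of tested genes. It lay at -19 to -14 in Iqgap3 and at -18 to -13 in Cdc20. In Tubb4b it lay outside the printed stretch, at -198 to -193. Of the 8 tubulin list genes with an entry, Tubb4b was the only 1 that held this word. That share of 12.5% was close to the 13.1% of all tested genes with an entry. All 4 tubulin genes that fell had an entry, and the other members held no such word. Ube2s, the other mitosis gene that fell, held neither of the words marked above. CCAAT was found in 68.4% of the mitosis genes. Any of 4 E2F-type words (TTTGGCGC, TTTCGCGC, TTTCCCGC and TTTGCCGC, either strand) was found in 9 of 36 G1/S genes (25.0%), in 7.02% of the mitosis genes and in 3.91% of the 9756.

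Iqgap3 (chromosome 3, 88082002 to 88121048), a scaffold protein of dividing cells, had 11.1 and 22.2 CPM at 72 h, against 46.8 and 57.5 CPM at 48 h, a log2 fold change of -1.64 ± 0.34 (adjusted p = 0.048). Ube2s (chromosome 7, 4808014 to 4812340), which extends ubiquitin chains on targets of the anaphase-promoting complex, had 56.6 and 67.0 CPM, against 133 and 175 CPM (-1.31 ± 0.19, adjusted p = 0.0132); its exons overlap those of Rpl28. Both genes had no overlap between the times.

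Many other mitosis genes had values as large without passing. Plk1, the polo-like kinase of mitotic entry, had 26.2 and 48.7 CPM at 72 h, against 101 and 116 CPM at 48 h (-1.53 ± 0.37, adjusted p = 0.0881). Ube2c was at 35.3 and 48.1 CPM, against 110 and 123 CPM (-1.48 ± 0.38, adjusted p = 0.1), and Cdc20 was at -1.40 on the log2 scale. Cdk1, the kinase that drives mitosis, had 29.1 and 38.6 CPM, against 71.4 and 76.7 CPM (-1.13 ± 0.30, adjusted p = 0.114). In each of these, 72 h replicate 1 was the lowest pool and 72 h replicate 2 lay between it and the 48 h pools. Mki67 overlapped between the times, with 39.4 and 114 CPM at 72 h, against 104 and 137 CPM at 48 h (-0.65 ± 0.46). Top2a had 37.8 and 77.5 CPM, against 83.6 and 98.7 CPM (-0.66 ± 0.32).

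None of 9 cyclin genes passed in edgeR or limma-trend, 1 was called lower in DESeq2, 5 had an unadjusted p under 0.05, and the median was -0.60. Ccnb1, a cyclin of mitosis, had 22.4 and 39.2 CPM at 72 h, against 74.3 and 98.7 CPM at 48 h (-1.49 ± 0.37, adjusted p = 0.0976). Ccnb2, its relative, had 18.4 and 29.9 CPM, against 61.4 and 78.2 CPM (-1.53 ± 0.43, adjusted p = 0.127). In both the pools of the 2 times were apart. Ccna2 of S and G2 phase had a value of -0.95 ± 0.36. Ccnd1, the cyclin of G1, had 163 and 287 CPM at 72 h, against 295 and 189 CPM at 48 h, with overlap (-0.11 ± 0.25, adjusted p = 0.875). Whether Ccnb1 and Ccnd1 differed in their change was not tested.

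DNA replication genes also had mostly negative values. Of 44 G1/S and replication genes none passed in edgeR, DESeq2 or limma-trend, 17 had an unadjusted p under 0.05, and the median was -0.51, with 36 negative values. Mcm5, a subunit of the replicative helicase, had 21.6 and 40.4 CPM at 72 h, against 61.5 and 51.1 CPM at 48 h (-0.86 ± 0.28, adjusted p = 0.177). Rrm2, which makes deoxynucleotides, had 34.5 and 53.8 CPM, against 92.4 and 70.2 CPM (-0.88 ± 0.38), and the clamp gene Pcna had 39.3 and 60.7 CPM, against 59.1 and 47.8 CPM, with overlap (-0.10 ± 0.20). Leaving out 1 pool moved the G1/S median from -0.28 without 72 h replicate 1 (3 genes at an unadjusted p under 0.05) to -0.81 without 72 h replicate 2 (25 genes). It was -0.32 without 48 h replicate 1. Of 38 repair and checkpoint genes none passed in edgeR or limma-trend and 1 was called lower in DESeq2. In edgeR 11 had an unadjusted p under 0.05, and the median was -0.48, or -0.19 without 72 h replicate 1 and -0.86 without 72 h replicate 2. Cdkn1a, which encodes the cycle inhibitor p21, was also lower without passing, at 74.7 and 137 CPM, against 202 and 239 CPM (-1.05 ± 0.25, adjusted p = 0.0881).

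**Figure D3:**
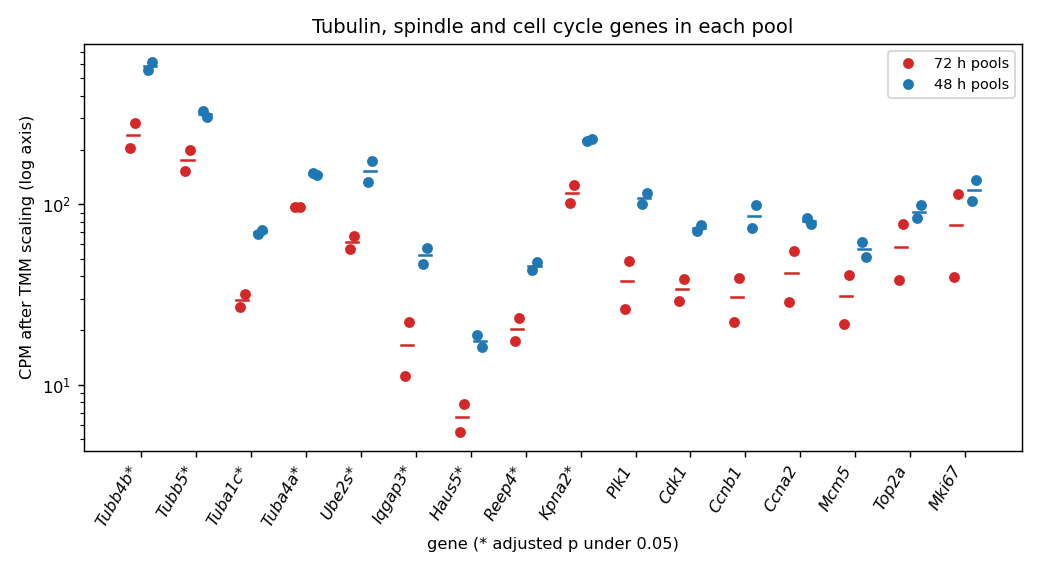
CPM after TMM scaling, on a log axis, of 16 tubulin, spindle and cell cycle genes; points are single pools (red 72 h, blue 48 h), bars are means of 2 pools, and an asterisk marks an adjusted p under 0.05. Within 72 h the points of the cycle genes at the right spread widely, as in Mki67 with 39.4 and 114 CPM, whereas Tuba4a had 96.9 and 96.1 CPM.

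The mitosis genes summed to 1223 and 2136 CPM at 72 h, against 3152 and 3528 CPM at 48 h. The sum was 256 CPM in sham, 567 and 659 CPM at 24 h, 648 and 334 CPM at 120 h and 533 and 359 CPM at 168 h. Both 72 h pools were thus still above all 5 libraries of sham, 120 h and 168 h. The G1/S genes summed to 699 and 988 CPM at 72 h, against 1253 and 1070 CPM at 48 h, and had already reached 889 and 919 CPM at 24 h, so that the 72 h pools straddled the 24 h level. Without 72 h replicate 2 the mitosis median was -1.44 with 2 calls, and without 72 h replicate 1 it was -0.50 with none in edgeR, where 13 had an unadjusted p under 0.05. Without 48 h replicate 2 none passed either, with 24 at an unadjusted p under 0.05, and without 48 h replicate 1 only 1 did.

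**Figure D4:**
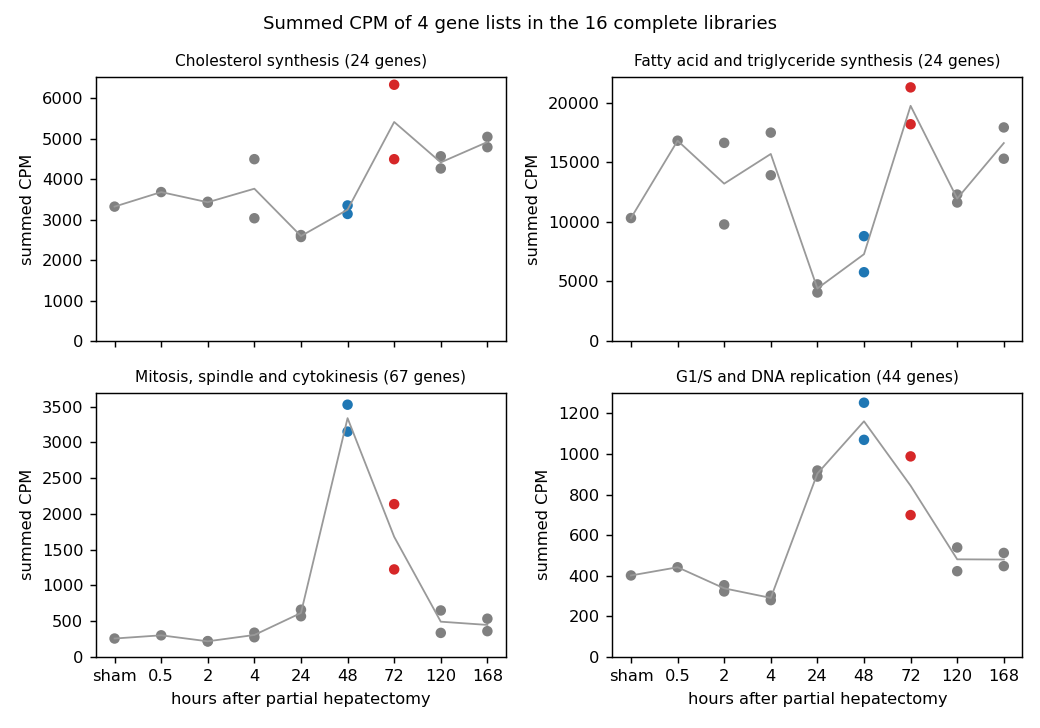
Summed CPM of 4 gene lists, with the time after the operation on the horizontal axis (equal steps, not to scale) and 1 point per complete library; the line joins group means, red marks 72 h and blue 48 h. The mitosis sum peaked at 48 h (3152 and 3528 CPM) and the fatty acid sum was lowest at 24 h (4076 and 4755 CPM).

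Other genes also fell. Kpna2, an importin that carries proteins into the nucleus, had 102 and 128 CPM at 72 h, against 225 and 230 CPM at 48 h (-0.98 ± 0.17, adjusted p = 0.0237). Lmna, the gene of lamins A and C, had 62.7 and 69.2 CPM, against 127 and 129 CPM (-0.96 ± 0.18). The 48 h pools were nearly equal in both genes. Haus5, a subunit of the augmin complex of spindles, had 5.45 and 7.84 CPM, against 18.8 and 16.2 CPM (-1.39 ± 0.24), and Reep4, which keeps endoplasmic reticulum off mitotic chromosomes, had 17.3 and 23.5 CPM, against 43.0 and 47.7 CPM (-1.15 ± 0.24). Suv39h1, a histone methyltransferase of heterochromatin, fell by 1.17 on the log2 scale and Cep89, a centriole gene, fell by 1.12. None of Kpna2, Lmna, Haus5, Reep4, Suv39h1 and Cep89 was on a cell cycle list.

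Mbd1, which binds methylated DNA, had 24.9 and 24.5 CPM at 72 h, against 65.0 and 85.7 CPM at 48 h (-1.61 ± 0.21, adjusted p = 0.0132). The 72 h pools were nearly equal, and at sham the gene had 33.2 CPM. The RNA-processing genes Srsf2 and Snrnp70 had log2 fold changes of -0.70 ± 0.13 and -0.76 ± 0.15, and exons of Srsf2 overlap those of Mettl23 and Mfsd11. Arl6ip1 and Nudc fell by 0.62 and 0.65. The polo-like kinase gene Plk3 fell by 0.99.

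Jun was the only immediate early gene of 24 measured that fell, and none rose. This AP-1 subunit had 17.6 and 16.4 CPM at 72 h, against 35.0 and 32.4 CPM at 48 h (-0.99 ± 0.16, adjusted p = 0.0154). Its relatives Fos and Junb had values of -1.23 ± 0.45 and -1.23 ± 0.44 with wider errors and adjusted p of 0.224 and 0.221. The list median was -0.38. It became -0.11 or -0.65 when replicate 1 or replicate 2 at 72 h was left out, and -0.15 when 48 h replicate 1 was.

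The acute-phase response showed 1 call among 29 genes in edgeR and a median of -0.84, and its size depended on 1 pool. A negative value was found in 28, and 18 had an unadjusted p under 0.05 in edgeR. Both 72 h pools lay below both 48 h pools in 19, against 26.0% of all genes tested. DESeq2 called 6 of the 29 lower and limma-trend called none. Saa3, a serum amyloid A made in inflamed tissue (chromosome 7, 46711998 to 46719615), had 3.93 and 6.35 CPM at 72 h, against 26.9 and 469 CPM at 48 h. The fall was the largest of all genes that passed, -5.58 ± 1.12 (adjusted p = 0.0441), and nearly all of the 48 h signal came from replicate 2. Without that pool the value was -2.38 and did not pass. A2m had 1.20 and 1.49 CPM at 72 h, against 1.92 and 169 CPM at 48 h (adjusted p = 0.0881), and Lcn2 had 337 and 160 CPM, against 593 and 1898 CPM. Acute-phase genes summed to 43286 and 32564 CPM at 72 h, against 45102 and 79333 CPM at 48 h, so that 72 h replicate 1 and 48 h replicate 1 were close.

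Neutrophil markers moved with the same pool. Of 12 measured, none passed in edgeR, 7 had an unadjusted p under 0.05, and the median was -2.18. Counts were low, and with the 4 libraries alone only 6 of the 12 passed the count filter, with a median of -2.17. They summed to 8.18 and 14.3 CPM at 72 h, against 16.5 and 82.1 CPM at 48 h, and all 12 were higher in 48 h replicate 2 than in replicate 1. S100a9 had 1.53 and 3.27 CPM at 72 h, against 5.66 and 25.2 CPM at 48 h, while the granule genes Mpo and Elane were at or near 0 in all 4 pools, at most 0.393 and 0.218 CPM. Without 48 h replicate 2 the neutrophil median was -0.22 and the acute-phase median -0.51. The part of neutrophils in the acute-phase and Saa3 values was not tested.

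Several lists of mature liver functions had no call in edgeR or limma-trend. In edgeR none of 37 plasma protein genes passed (2 at an unadjusted p under 0.05, median 0.07), nor did any of 21 hepatocyte identity factors (4, median 0.05), 38 cytochrome P450 genes (3, median 0.10) or 38 genes of fatty acid oxidation (8, median 0.04). DESeq2 called 1 plasma protein gene and 1 fatty acid oxidation gene higher, 1 identity factor lower and no cytochrome P450 gene. The medians of the plasma protein, cytochrome P450 and fatty acid oxidation lists were -0.07, -0.07 and -0.03 when 72 h replicate 1 was left out. Alb had 130151 and 105997 CPM at 72 h, against 84801 and 89432 CPM at 48 h (0.44 ± 0.21, adjusted p = 0.358), and Hnf4a, a master factor of hepatocytes, had 744 and 756 CPM, against 799 and 911 CPM (-0.19 ± 0.15). Afp, the fetal relative of albumin, had 5.02 and 10.6 CPM, against 8.35 and 5.31 CPM. Of 30 ribosome biogenesis genes none passed in edgeR, DESeq2 or limma-trend, 7 had an unadjusted p under 0.05, and the median was -0.29.

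Among bile acid genes, Cyp7a1 and Cyp8b1 were high in 1 pool. Cyp7a1, whose enzyme opens the main route to bile acids, had 192 and 26.9 CPM at 72 h, against 20.8 and 40.9 CPM at 48 h, and Cyp8b1 had 199 and 15.5 CPM, against 12.1 and 24.0 CPM. In both genes 72 h replicate 1 was high and replicate 2 lay within the 48 h range, and neither passed (adjusted p = 0.221 and 0.16). Of 22 bile acid genes measured, 9 had both 72 h pools above both 48 h pools and 1 had both below. The shares over all genes tested were 24.7% and 26.0%. None passed in edgeR or limma-trend, and 1 was called higher in DESeq2. In edgeR 10 had an unadjusted p under 0.05, and the median was 0.46. Leaving out 72 h replicate 2 gave 3 calls, and leaving out 72 h replicate 1 a median of 0.15.

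Markers of other cells gave no call in edgeR, DESeq2 or limma-trend. None of 30 endothelial (2 at an unadjusted p under 0.05, median 0.19), 26 Kupffer cell and macrophage (1, median -0.12), 13 cholangiocyte (4, median 0.42), 11 erythroid (2, median 0.16) or 9 T, NK and B cell markers (0, median 0.65) passed in edgeR. The median without 72 h replicate 1 was 0.05 for the Kupffer cell and macrophage markers, -0.34 for the erythroid markers and -0.25 for the T, NK and B cell markers. For the cholangiocyte markers it was -0.12 without 72 h replicate 2. Of the other 22 lists, 21 had no call in edgeR or limma-trend, with medians between -0.63 for platelet markers and 0.81 for mesothelial markers. In edgeR 57 of their 456 entries reached an unadjusted p under 0.05, against 1802 of all 12199 genes tested. DESeq2 called 5 entries higher and 3 lower in 7 of these 21 lists. In the list of female-biased genes Rtn4, which shapes endoplasmic reticulum tubules, rose with 56.4 and 67.5 CPM at 72 h, against 32.3 and 33.9 CPM at 48 h (0.90 ± 0.18, adjusted p = 0.0463).

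**Figure D5:**
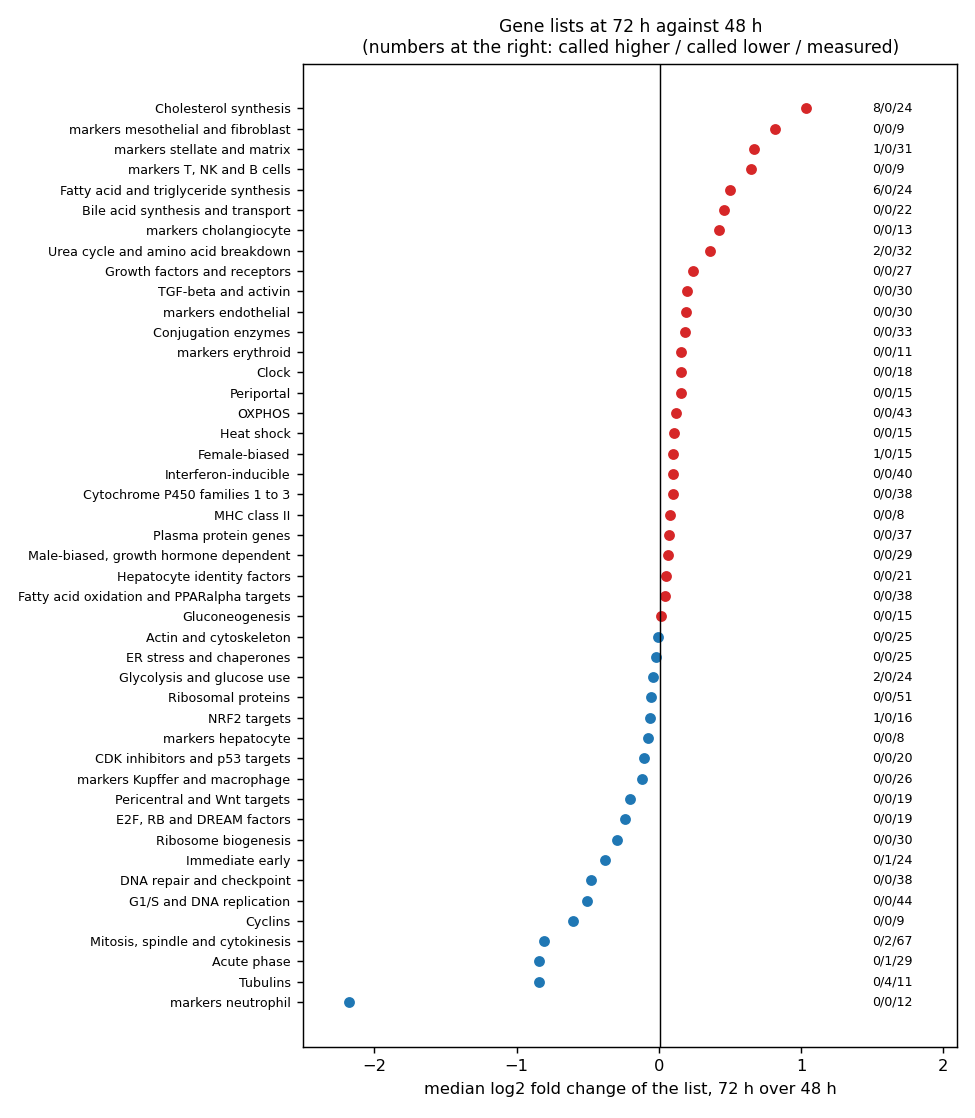
Median log2 fold change, 72 h over 48 h, of each gene list with at least 8 measured genes; the numbers at the right count the members called higher, called lower and measured, and the vertical line is the median of all genes tested. Cholesterol synthesis has the highest median (1.03) and the neutrophil markers the lowest (-2.18, no member called).

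Across the whole course, the group mean peaked at 48 h in 23 of the 28 genes that fell and at 72 h in 27 of the 52 that rose. The choice of genes already fixes that the 48 h mean was above the 72 h mean in the first set and below it in the second. The genes that rose were at their lowest at 24 h in 22 cases and at 48 h in 19, and only 5 of the genes that fell were at their lowest at 72 h.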

How the data were processed

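Liver poly(A) RNA was sequenced, with 3 RNA samples pooled per library, per the labels' protocols. Each deposited table gave the count of uniquely mapped reads per gene and an RPKM value made by the authors from count, gene length and total, per the file headers. The submitters' processing notes name mm10 as the build. Aligner, counter and strand setting: not given in the sources used here. The tables of sham replicate 2 and 0.5 h replicate 1 ended early and were left out.

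Counts of the 16 complete libraries entered edgeR 4.0.16 under R 4.3.3 (TMM factors, quasi-likelihood F test, 1 fit over all groups, contrast 72 h minus 48 h) and adjusted by Benjamini-Hochberg at 0.05. Genes were kept if 2 or more libraries reached the CPM that 10 reads give at median depth and the total was 15 reads or more, which left 12199 genes, with a biological coefficient of variation of 0.166 and 7 residual degrees of freedom. SEs were derived from the F statistic (size of the log2 fold change over the square root of F). Totals alone, without TMM, moved the median log2 change to -0.08. A count of 0 allows up to 3 reads, at most 0.351 CPM, for counting error only. P-values measure the spread between pools, which may be partly technical.

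Gene lists (47, with 1227 entries, of which 18 had no match and 77 were not tested), their members and the comparison were chosen with earlier results of these data known. Genes were named by rule: the 12 largest rises and falls called with a mean of at least 10 CPM, at most 6 members of a list by smallest p, a set of cycle and liver genes whatever their value, and the 4 most abundant calls in each direction. Other members were named after their values were seen. Single values of some list members are not reported here. Promoters came from RefSeq on GRCm38.p6. The sterol word was added after the data were seen.

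Alternatives were DESeq2 1.42.0, RLE factors, limma-trend (limma 3.58.1) on log2 CPM with a prior count of 2 and on log2(RPKM + 1) of the deposited values, no filter, the 4 libraries alone, all 18 libraries over 4906 genes, a replicate block and leaving out each pool. Replicate numbers did not pair the pools, and the edgeR fit was tested on simulated data. Python 3.11.15, pandas 2.3.3 and matplotlib 3.10.9 were used.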

Additional observations from a re-analysis of the deposited data

How the results depend on the processing

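The counts of calls moved with the model. The same 80 genes kept their sign in each alternative that tested them (59 of 59 in the 18 libraries). The alternatives used the same pools, which did not overlap in these genes, so a change of sign was hardly possible. DESeq2 gave no adjusted p for 2838 of the 12199 genes, Afp and Ccne2 among them. DESeq2 called 225 genes (132 higher, 93 lower), of which 79 were among the 80, the unfiltered fit 494 (262 and 232), the 18 libraries 180 (110 and 70) and the 4 libraries alone 13 (10 and 3). RLE factors gave 84, limma-trend on log2 CPM 64, and limma-trend on log2(RPKM + 1) 91 with 42 higher and 49 lower, a split unlike the 52 and 28 of edgeR. Leaving out 1 pool gave 0 to 83 calls, 0 to 60 of them higher and 0 to 23 lower. The replicate numbers shared by the labels did not pair the pools (r = -0.0013 over 12199 genes between the replicate differences at 72 h and 48 h), and a block for them gave 99 calls, 60 higher and 39 lower.

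List counts were examined in the same alternatives, for cholesterol, fatty acid and tubulin genes after the data were seen. Cholesterol synthesis genes called higher numbered 13 in DESeq2, 17 unfiltered, 2 in the 4 libraries and 0 to 12 without 1 pool. Fatty acid synthesis genes called higher numbered 3 in limma-trend on log2(RPKM + 1), 11 unfiltered, 2 in the 4 libraries and 0 to 4 without 1 pool. Mitosis genes called lower numbered 9 in DESeq2, 1 and 4 in limma-trend on log2 CPM and log2(RPKM + 1), 28 unfiltered, 1 in the 4 libraries and 0 to 2 without 1 pool. G1/S genes called lower numbered 5 unfiltered and 1 in the 18 libraries, where 5 were tested, and 0 in the leave-one-out fits. Tubulin genes called lower numbered 7 in DESeq2, 8 unfiltered, 1 in the 4 libraries and 0 to 4 without 1 pool.

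Some uncalled genes changed sign when a pool was left out. Over the 4 fits the log2 fold change ran from -0.47 (without 72 h replicate 2) to 0.64 in Afp, which was also -0.09 without 48 h replicate 2. It ran from -0.59 to 0.25 in Ccnd1 and from -0.47 to 0.19 in Pcna, both positive without 72 h replicate 1 and without 48 h replicate 1. Fasn ran from -0.057 (without 48 h replicate 2) to 1.84 and Srebf1 from -0.70 to 0.023 (without 48 h replicate 1). Srebf2 ran from -0.059 and Cyp7a1 from -0.19, both without 72 h replicate 1, to 0.24 and 2.61, and Ccne2 from -0.034 (without 72 h replicate 2) to 0.59. Some uncalled genes passed when a pool was left out. Col1a1 (1.95) and Col3a1 (1.83) passed without 72 h replicate 1, Cyp7a1 (2.61), Sqle (1.72) and Cdkn1a (-1.58) passed without 72 h replicate 2, and Thrsp (2.45) passed without 48 h replicate 1. All 6 also passed in the unfiltered fit, and all but Cyp7a1 in DESeq2. The cause of these shifts was not tested. At this depth, levels under 0.351 CPM cannot be told from 0.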
